A study of Mus musculus with 34 samples.

Results

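The translation initiation and elongation factor genes of the mouse were examined in preimplantation embryos. They were taken by symbol, as every gene named Eif2 to Eif6 or Eef1 and Eef2 with any letters or digits after it, pseudogene symbols left out. This gave 64 genes among the 49686 of the zygote and late 2-cell tables and 61 among the 51734 of the blastocyst table, which does not list Eef1akmt2, Eef1akmt3 and Eef1akmt4. One of the 64, Eif2c5, carries a symbol once used for the Argonaute proteins and is annotated in GENCODE as a long non-coding RNA, so it matched the rule by name only.

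The embryos came from zygotes microinjected with mRNA for wild-type (WT) CHK1, a kinase of the DNA damage checkpoint, or for a CHK1 mutant written R442Q. The series asks what follows when that checkpoint is perturbed. Each library was 1 embryo, its zona pellucida removed, made by SMART-seq2 (full-length cDNA from very small amounts of RNA) and Nextera tagmentation. There were 5 WT and 6 R442Q zygotes and 4 WT and 5 R442Q late 2-cell embryos, none of them given an inhibitor, and 7 WT and 7 R442Q blastocysts cultured with a CHK1 inhibitor at 30 nM. All 34 embryos carried injected CHK1 mRNA, so uninjected embryos are not among the groups. Strain, age of the mothers and the species of the injected sequence are not given in the labels, nor is it said which embryos shared a mother or an injection session, so p-values measure the spread between these embryos.

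Translation starts when eIF2, loaded with GTP and initiator tRNA, joins the small ribosomal subunit together with the large scaffold eIF3. The cap of the mRNA is bound by eIF4E, which the helicase eIF4A and the scaffold eIF4G join to form eIF4F, and eIF4E-binding proteins block that step. Elongation is carried by eEF1A, which brings aminoacyl-tRNA, and by eEF2, which moves the ribosome along and is switched off by eEF2 kinase. Eggs store mRNA for the first divisions, and the mouse embryo takes over with its own transcripts mainly at the 2-cell stage.

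Many mRNAs of the translation machinery begin with a C followed by a run of pyrimidines, the terminal oligopyrimidine tract, through which growth signals control their use. RefSeq windows of the GRCm38.p6 assembly were searched, on the gene's own strand only, for a C followed by at least 4 bases that are C or T. Of the 64 genes 49 had a window. The annotated start base was itself a C with at least 4 pyrimidines after it in 3 of the 49 (6.12%), against 3.01% of 27025 genes. Allowing a tract to begin within 10 bases of the start, 18 of the 49 had one (36.7%), against 34.4% of all genes. By this wider measure the factor genes were close to the rest, while the higher share at the start base rests on 3 genes. The sequences below run from 10 bases before the start base to 20 bases from it on, with the longest such tract in capitals, counted from the earliest C of its pyrimidine run. They are shown for a subunit of eIF3 that rose from zygote to late 2-cell, for the X-linked and Y-linked copies of the eIF2 gamma subunit, the second of which was detected in some embryos and not in others, and for the eEF1A gene.
Eif3f (GRCm38.p6, chr7:108934405-108934434, plus strand): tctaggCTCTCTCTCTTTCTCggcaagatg
Eif2s3x (GRCm38.p6, chrX:94212632-94212661, minus strand): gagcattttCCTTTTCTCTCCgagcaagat
Eif2s3y (GRCm38.p6, chrY:1010585-1010614, plus strand): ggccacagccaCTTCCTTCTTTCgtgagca
Eef1a1 (GRCm38.p6, chr9:78481705-78481734, minus strand): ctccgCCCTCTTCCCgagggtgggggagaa
The tract of Eif3f was 15 bases long and those of Eif2s3x and Eif2s3y 12 each, and these stretches are windows of the annotation, not starts measured in these embryos.

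Each zygote library held 7183632 to 11296522 estimated counts, of which the 64 genes took 0.747 to 0.845%, and each late 2-cell library 5727956 to 8916343, of which they took 0.786 to 1.23%. Blastocysts have FPKM only (fragments scaled to transcript length and library size), so their depth in counts is unknown. Chek1, whose mRNA was injected, stood at 4590 to 8650 CPM (counts scaled to a common library size) in the 11 zygotes and 259 to 720 CPM in the 9 late 2-cell embryos, with overlapping groups, and the injected and the embryo's own mRNA are counted together. Egg and zygote markers (Zp3, Gdf9, Bmp15, Mos, Nlrp5, Ooep) were all detected in zygotes, all 5 listed late 2-cell markers in late 2-cell embryos, and all 8 trophectoderm and all 6 epiblast markers in blastocysts, each at a group mean of at least 1 FPKM. Off stage, all 6 egg and zygote markers also reached that mean in both late 2-cell groups. So did 6 (WT) and 5 (R442Q) of the 8 trophectoderm markers in late 2-cell embryos. In zygotes 2 (WT) and 4 (R442Q) of the 5 late 2-cell markers did. Of 6 primitive endoderm markers 5 reached it in blastocysts, 4 in late 2-cell embryos, and 2 (WT) and 3 (R442Q) in zygotes. Of 7 cumulus cell markers 1 reached that mean in zygotes, 2 in late 2-cell embryos and 1 in blastocysts. Late 2-cell R442Q libraries had a larger sum of FPKM, 814376 to 976830, than WT libraries, 712234 to 742246.

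The levels of the factor genes changed with the stage first of all. By mean FPKM over both forms of CHK1, 34 of the 59 genes that reached 1 FPKM and were listed at all 3 stages were highest in blastocysts, 16 in late 2-cell embryos and 9 in zygotes. The mean sum of FPKM per library also differed, at 680700 in zygotes, 822200 in late 2-cell embryos and 1066000 in blastocysts. These counts were not scaled for that, and the same shares over all genes were not taken. In zygotes the highest of the 64 was Eif5, the GTPase-activating partner of eIF2, at a mean of 714.5 FPKM, followed by Eif5a (501.9), which helps the ribosome at difficult peptide bonds, Eef1a1 (396), Eif4e (335.2) and Eif4e1b (290.2). In late 2-cell embryos Eif5 again led at 1344 FPKM, before Eef1a1 at 641.8 and Eif5a at 558.2. In blastocysts the order was Eef1a1 at 2554 FPKM, Eif5a at 2043, Eif2s2 (the eIF2 beta subunit) at 1222, the eIF3 subunit gene Eif3k at 827.4 and Eef1g at 671.6. The 3 FPKM tables were made separately and only blastocysts had inhibitor, so levels across stages are given side by side and were not tested beyond the late 2-cell stage. In a whole blastocyst, more or fewer cells of a type and more or less RNA per cell cannot be told apart.

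**Figure D1:**
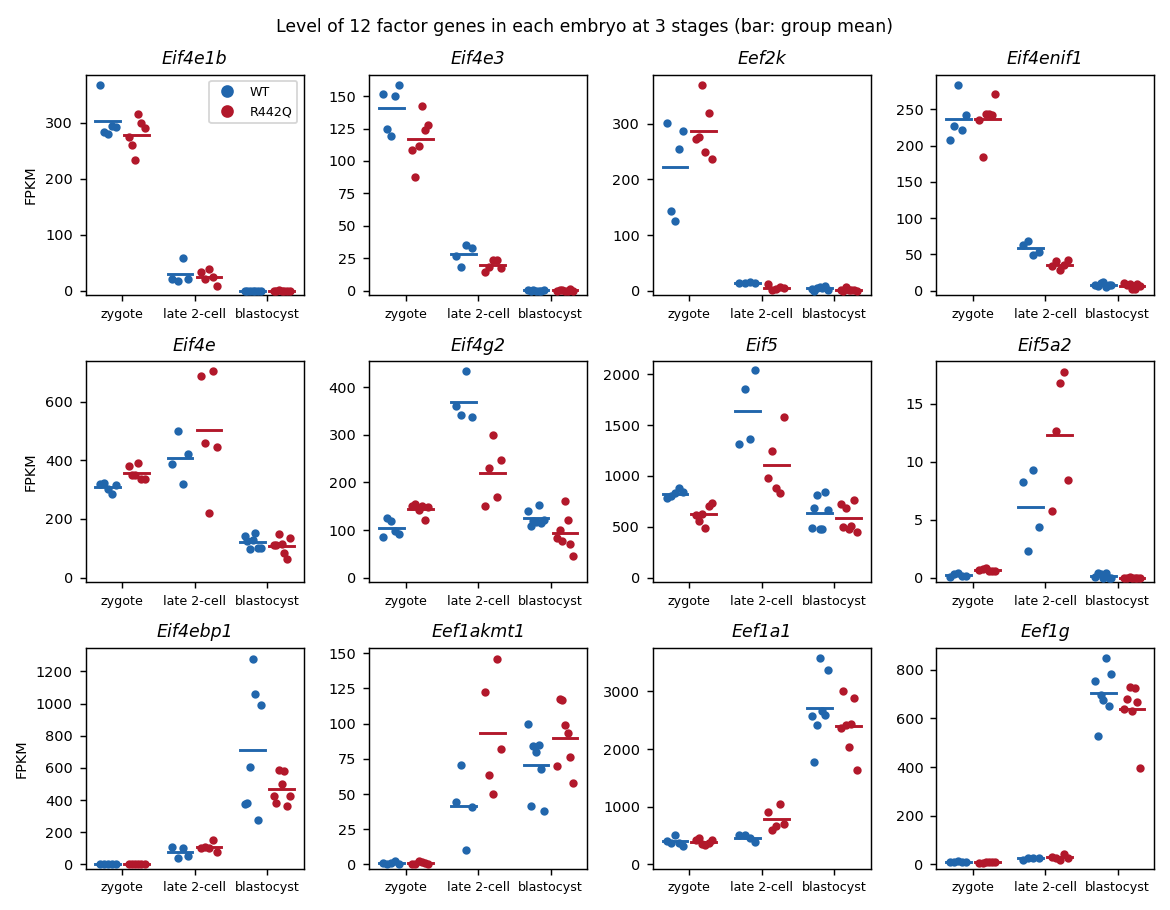
FPKM (linear axes, a scale for each gene) of 12 factor genes in every embryo, WT in blue and R442Q in red, by stage; points are embryos and bars are group means. Eif4e1b, Eif4e3, Eef2k and Eif4enif1 were highest in zygotes, Eif4e, Eif4g2, Eif5 and Eif5a2 peaked in late 2-cell embryos, and Eif4ebp1, Eef1a1 and Eef1g were highest in blastocysts.

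Genes of cap-binding proteins changed in both directions between zygote and late 2-cell. Eif4e1b, the egg form of the cap-binding protein (GRCm38 chromosome 13, 54783998 to 54788459), stood at 367.91, 283.28, 279.44, 294.7 and 292.37 FPKM in WT zygotes. In WT late 2-cell embryos it stood at 20.47, 16.68, 59.15 and 20.74 FPKM, and in all 7 WT blastocysts it was listed at 0. The WT zygotes therefore all lay above the WT late 2-cell embryos, and the edgeR log2 change in counts was -3.13 ± 0.36 (SE), with an adjusted p of 8.42e-08. Eif4e3, another cap-binding form, stood at 151.31, 124.47, 119.43, 150.22 and 158.68 FPKM in WT zygotes and at 27.08, 18.57, 34.99 and 32.98 FPKM in WT late 2-cell embryos. It fell without overlap, by 2.34 ± 0.22 on the log2 scale (edgeR adjusted p 5.42e-09). Eif4e2, a cap-binding protein that represses translation, rose by a log2 of 2.98 ± 0.33 (edgeR adjusted p 5.36e-08), and its mean over both forms of CHK1 went from 7.15 to 88.6 and then to 267 FPKM. Eif4e itself stood at 320.53, 321.54, 301.72, 286.43 and 316.78 FPKM in WT zygotes and at 388.29, 499.01, 320.08 and 422.78 FPKM in WT late 2-cell embryos. These groups overlapped, and the change did not pass the test (log2 0.32 ± 0.26, edgeR adjusted p 0.294). Its mean FPKM was 335.2, 460.4 and 115.2 at the 3 stages, and 0.25 was the lowest ratio of blastocyst to late 2-cell among members with at least 10 FPKM in blastocysts.

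Among the genes of eIF4E inhibitors Eif4ebp1 rose and Eif4enif1 fell, and Eif4ebp2 and Eif4ebp3 did not pass in WT embryos (log2 0.83 and 1.35, edgeR adjusted p 0.0734 and 0.420). Eif4ebp1, the eIF4E-binding protein that holds eIF4E away from eIF4G (chromosome 8, 27260329 to 27276674), stood at 0, 2.41, 0.31, 0.85 and 0.67 FPKM in WT zygotes and at 108.78, 38.86, 99.5 and 53.08 FPKM in WT late 2-cell embryos. It reached 279 to 1280 FPKM, median 607, in WT blastocysts. The groups of successive stages did not overlap, and the WT change from zygote to late 2-cell, a log2 of 6.57 ± 0.56 (edgeR adjusted p 9.24e-10), was the largest rise of any factor gene in WT embryos. Eif4enif1, which encodes the eIF4E transporter 4E-T, fell from 207.62, 227.39, 284.12, 222.19 and 242.77 FPKM in WT zygotes to 62.49, 69.19, 48.67 and 52.78 FPKM in WT late 2-cell embryos. Its log2 change was -2.24 ± 0.21 (edgeR adjusted p 4.46e-09), and WT blastocysts had 5.65 to 12.5 FPKM. Eef2k, the kinase that inhibits eEF2 (chromosome 7, 120842831 to 120907450), went from 300.55, 142.47, 124.51, 254.67 and 287.35 FPKM in WT zygotes to 13.81, 13.94, 15.59 and 14.62 FPKM in WT late 2-cell embryos. That was the largest fall of any factor gene in WT embryos, a log2 of -3.87 ± 0.35 (edgeR adjusted p 2.88e-09), while Eef2 itself rose by 1.66 ± 0.33 (edgeR adjusted p 1.35e-04).

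Over all factor genes, 45 of the 60 tested passed the edgeR threshold (a Benjamini-Hochberg adjusted p under 0.05) between zygote and late 2-cell in WT embryos. That is 75% of them, against 61.2% of the 16199 genes tested. Of the 45, 31 were higher and 14 lower in late 2-cell embryos (background 36.2% and 25%), and the median log2 change of the 60 was 0.90, against 0.34 over all genes. In R442Q embryos 42 of the 60 passed (70%, background 65.1%), 33 higher and 9 lower (background 35.3% and 29.8%), with a median of 0.93 against 0.22 over all genes. Scaling by library totals alone moved the median of all genes to 0.43 in WT and 0.42 in R442Q embryos, and that of the factor genes to 0.96 and 1.11. Stage and table cannot be told apart, since each stage was deposited as a table of its own.

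Of the 14 subunit genes of eIF3, 11 rose in WT embryos at this step, 1 fell (Eif3i, log2 -0.69 ± 0.20, edgeR adjusted p 0.00512) and 2 did not pass, Eif3d and Eif3e. Over all genes 36.2% rose and 25% fell. The rise of Eif3k passed in 6 of the 20 fits that left out 1 embryo, with an edgeR adjusted p of up to 0.137. In R442Q embryos 12 of the 14 rose and none fell, against 35.3% and 29.8% of all genes. The largest rise in WT embryos was that of Eif3f, whose start window is printed above, at a log2 of 3.23 ± 0.33 (edgeR adjusted p 1.33e-08). In mean FPKM of WT embryos the 14 genes ran from 4.58 (Eif3b) to 174.8 (Eif3i) in zygotes, from 13.5 (Eif3b) to 181.3 (Eif3h) in late 2-cell embryos and from 8.30 (Eif3j2) to 864.2 (Eif3k) in blastocysts. The ratio of the highest to the lowest of the 14 was 38.2, 13.4 and 104 in these groups, so the transcript levels of subunits of the same complex were far from equal at every stage. Eif3j1 and Eif3j2 are close copies, with 36.9% and 91.8% of their 50-base stretches found in other annotated genes, so their split is uncertain. The blastocyst ratio of 104 rests on Eif3j2 as the lowest gene and shares that uncertainty. Leaving out both copies, the lowest mean in WT blastocysts was that of Eif3a, at 47.1 FPKM.

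The eIF2 arm changed gene by gene. All 5 genes of eIF2B, the exchange factor that recharges eIF2 with GTP, passed in WT embryos, against 61.2% of all genes tested. Eif2b2, Eif2b4 and Eif2b5 rose (log2 1.62, 1.52 and 3.52) and Eif2b1 and Eif2b3 fell (-1.46 and -1.33), against 36.2% and 25% of all genes. Among the eIF2 alpha kinases, Eif2ak4 (GCN2, which senses uncharged tRNA) fell by 2.05 and Eif2ak1 (the heme-regulated kinase) by 1.20 on the log2 scale, while Eif2ak3 (PERK, of the endoplasmic reticulum) rose by 2.27 in counts. In FPKM its change was far smaller: WT zygotes stood at 8.43, 9.17, 4.35, 13.22 and 12.53 and WT late 2-cell embryos at 11.14, 13.13, 17.7 and 12.52, overlapping groups with a log2 ratio of means of 0.51. Among the 45 genes called in WT embryos, the log2 change in counts and the log2 ratio of mean FPKM differed by more than 1 for Eif2ak3 and Eef1e1 (an eEF1-related subunit of the aminoacyl-tRNA synthetase complex). The median gap over the 45 was 0.10. Eef1e1 was lower in late 2-cell embryos by counts (log2 -0.90 ± 0.28, edgeR adjusted p 0.00728) and higher in mean FPKM (60.6 and 98.8), and it was the 1 gene of the 45 whose sign differed. These 2 were singled out after their values were seen. Eif2s1, the eIF2 alpha subunit that these kinases phosphorylate, stood at 37.32, 36.31, 33.98, 35.82 and 35.22 FPKM in WT zygotes and at 82.01, 74.85, 63.29 and 74.1 FPKM in WT late 2-cell embryos. It rose without overlap, by 0.87 ± 0.22 on the log2 scale of counts (edgeR adjusted p 0.00164). Eif2s2, the beta subunit, stood at 207.95, 246.09, 217.15, 194.06 and 233.22 FPKM in WT zygotes and at 130.42, 180.99, 197.94 and 152.68 FPKM in WT late 2-cell embryos. The highest late 2-cell embryo lay within the range of the zygotes, and the change was -0.63 ± 0.26 (edgeR adjusted p 0.0367). It passed in 16 of the 20 fits that left out 1 embryo, with an adjusted p of up to 0.0665. In R442Q embryos the change of Eif2s2 was positive, 0.52 ± 0.23 (edgeR adjusted p 0.0481), and passed in 2 of the 20. The largest rises outside the eIF2 arm, beside Eif4ebp1, were those of a methyltransferase gene and an eIF5A gene. Eef1akmt1, a lysine methyltransferase of eEF1A, stood at 1.08, 0.17, 0.71, 2.12 and 0.65 FPKM in WT zygotes and at 44.57, 70.29, 10.23 and 41.11 FPKM in WT late 2-cell embryos. It rose in all of them, by a log2 of 5.42 ± 0.77 (edgeR adjusted p 2.30e-06), and Eif5a2, the second eIF5A gene, rose by 4.89 ± 0.50 (edgeR adjusted p 1.44e-08).
Eif6, which keeps the large ribosomal subunit from joining too early, stood at 129.36, 122.79, 123.6, 142.45 and 115.52 FPKM in WT zygotes and at 435.14, 585.63, 333.8 and 479.01 FPKM in WT late 2-cell embryos. It too rose without overlap, by 2.32 ± 0.26 (edgeR adjusted p 7.71e-08). In blastocysts Eef1g, the gamma subunit of the eEF1 complex, had 25 times its late 2-cell mean FPKM, and Eef2kmt, a methyltransferase of eEF2, 22 times, the highest ratios among members with at least 10 FPKM there. Eef1g stood at 17.63, 26.78, 28.33 and 25.93 FPKM in WT late 2-cell embryos and at 528 to 847 FPKM, median 697, in WT blastocysts. Eef2kmt stood at 3.59, 0.81, 0.37 and 0.38 FPKM in WT and at 1.15, 7.06, 1.22, 0 and 0 FPKM in R442Q late 2-cell embryos. WT blastocysts had 18.4 to 59.4 FPKM of it, median 37.4. Its ratio therefore rests on low late 2-cell values and depends on R442Q replicate 2. Eif5a2 was at most 0.43 FPKM in every blastocyst.

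The eIF2 gamma subunit has an X-linked and a Y-linked gene, and the Y-linked gene divided the late 2-cell embryos and blastocysts. Eif2s3y (chromosome Y, 1010543 to 1028847) was listed at 0 in all 5 WT zygotes and at 0 to 0.85 FPKM in R442Q zygotes. In WT late 2-cell embryos it stood at 0, 17.4, 14.94 and 0 FPKM, and in R442Q late 2-cell embryos at 0, 0, 0, 16.69 and 0 FPKM. In blastocysts 4 WT embryos had 22.25 to 39.28 FPKM and 3 R442Q embryos 16.2 to 39.59 FPKM, and the other 7 were at or under 0.08. Eif2s3x (chromosome X, 94188707 to 94212862) was detected in every embryo, at 16.34 to 27.81 FPKM in zygotes and 17.57 to 58.2 FPKM in blastocysts. Blastocysts with Eif2s3y had 17.57 to 58.2 FPKM of Eif2s3x and those without it 35.82 to 57.25 FPKM. These groups overlapped, and the highest value of all blastocysts, 58.2 FPKM, was that of WT replicate 2, which had Eif2s3y. Only with that embryo set aside, after the values were seen, did the groups part, and barely. The other 6 with Eif2s3y reached 35.68 FPKM, against 35.82 FPKM for the lowest of the 7 without it. The late 2-cell R442Q embryo with Eif2s3y had the lowest Eif2s3x of its stage, 4.48 FPKM, against 18.91 to 64.9 FPKM in the others. Eif2s3x shares 34.6% of its 50-base stretches with other genes and Eif2s3y none.

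R442Q was then compared with WT at each stage. In zygotes 12 of the 56 factor genes tested passed in edgeR. Of these, 6 were higher and 6 lower with R442Q. That is 21.4% of them, against a background of 13.2% of 12420 genes (6.30% higher and 6.92% lower). The median log2 difference of the 56 was -0.11, against 0.01 over all genes. Higher were Eif4g2, Eif2ak4, Eif4a1, Eif5a2, Eif4e and Eif5a, and lower were the eIF3 genes Eif3c, Eif3e, Eif3g and Eif3m, the eIF4G gene Eif4g3 and the eEF1A methyltransferase gene Eef1akmt4. Groups did not overlap for 4 genes that were higher and 8 that were lower, against a background of 2.54% and 6.84%. With library totals alone as the scaling, 18 passed, 4 higher and 14 lower, and 1840 of 12420 genes did. The median difference over all genes was then -0.11. With the size factors of DESeq2 9 passed, 6 higher and 3 lower, and 1622 of 12420 genes did.

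Of the 14 eIF3 genes 4 were lower in R442Q zygotes (28.6%, background 6.92%) and none higher (background 6.30%). The median of the 14 was -0.37. Eif3c, a core subunit (chromosome 7, 126546455 to 126566411), stood at 56.4, 80.9, 53.1, 38.7 and 50.5 CPM in WT zygotes and at 19.4 to 30.3 CPM, median 23.7, in R442Q zygotes. Every R442Q embryo was below every WT embryo. The log2 difference was -1.10 ± 0.17 (SE), with an edgeR adjusted p of 7.36e-04. Eif3e (chromosome 15, 43250058 to 43282719), another subunit, stood at 94.8, 114.9, 101.5, 79.9 and 81.7 CPM in WT and at 38.6 to 59.6 CPM, median 52.9, in R442Q zygotes, again with no overlap. Its log2 difference was -0.76 ± 0.13, with an edgeR adjusted p of 0.00153. Eif3g, an RNA-binding subunit, was lower by 0.69 ± 0.22 and Eif3m by 0.53 ± 0.17 on the log2 scale, with edgeR adjusted p-values of 0.0461 and 0.0462. Each of these 2 passed in 3 of the 11 fits that left out 1 zygote, with edgeR adjusted p-values of up to 0.140 and 0.109, and neither passed with the size factors of DESeq2. Eif3a, Eif3b and Eif3l had log2 differences of -0.59, -0.81 and -0.56 but did not pass (edgeR adjusted p 0.0756, 0.0871 and 0.0941), and Eif3f, Eif3h, Eif3i, Eif3j1 and Eif3j2 had positive differences that did not pass either. Eif3m overlaps Ccdc73 on the opposite strand and shares 17.2% of its stretches with other genes.

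The genes that were higher in R442Q zygotes encode factors of the eIF4 type, the eIF5A forms and a kinase of eIF2 alpha. Eif4g2, an eIF4G relative that lacks the eIF4E-binding region (chromosome 7, 111067750 to 111083030), stood at 301.6, 284.1, 302.1, 368.5 and 343.3 CPM in WT and at 411.5 to 519.3 CPM, median 488.9, in R442Q zygotes. Its log2 difference was 0.68 ± 0.11 (edgeR adjusted p 8.88e-04), with no overlap. Eif2ak4 (chromosome 2, 118388618 to 118475234) stood at 86.4, 89.0, 82.9, 72.4 and 79.8 CPM in WT and at 107.3 to 129.1 CPM, median 114.1, in R442Q zygotes, a log2 difference of 0.63 ± 0.10 (edgeR adjusted p 0.00101). These groups also did not overlap. Eif4a1, the main eIF4A helicase gene, stood at 375.6, 261.6, 257.6, 379.2 and 392.8 CPM in WT and at 350.2 to 511.4 CPM, median 464.2, in R442Q zygotes. Its groups overlapped, and the log2 difference was 0.57 ± 0.15 (edgeR adjusted p 0.0176). Eif5a2 was low in every zygote, at 0.247, 1.38, 1.77, 0.811 and 0.565 CPM in WT and 2.79 to 4.12 CPM in R442Q, where 3 counts correspond to 0.266 to 0.418 CPM. Its log2 difference of 1.90 ± 0.46 (edgeR adjusted p 0.0127) therefore rests on few reads, although the groups did not overlap. Eif4e stood at 440.0, 465.8, 464.2, 417.6 and 448.3 CPM in WT and at 473.6 to 527.4 CPM, median 496.1, in R442Q zygotes, just apart. Eif5a stood at 519.4, 476.6, 449.9, 538.2 and 644.4 CPM in WT and at 585.1 to 660.3 CPM, median 609.1, in R442Q zygotes, with overlap through 1 WT embryo. Eif4e and Eif5a differed by 0.28 ± 0.09 and 0.34 ± 0.11, with edgeR adjusted p-values of 0.0446 and 0.0482.

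**Figure D2:**
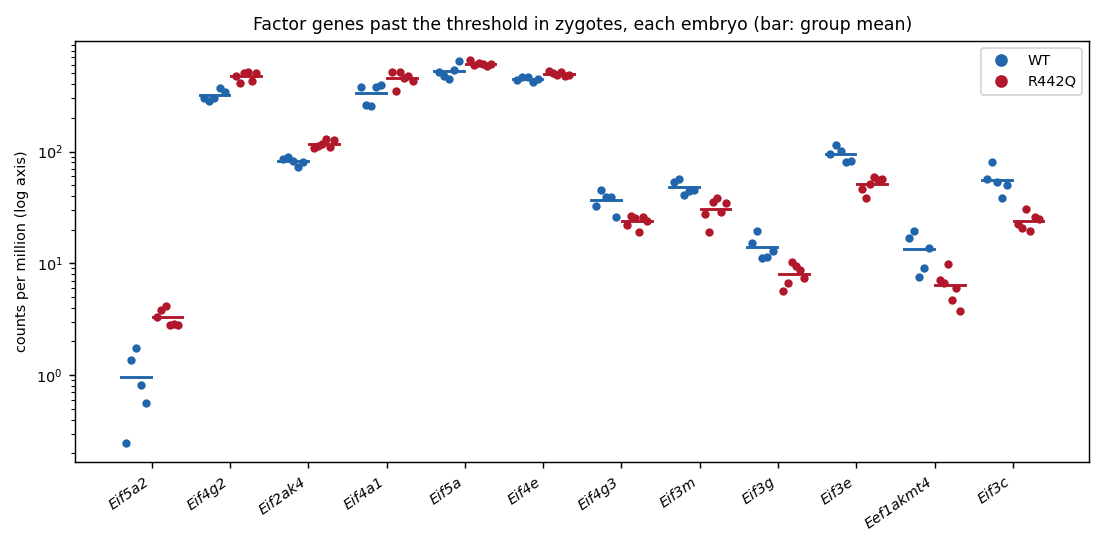
CPM (log axis) in every zygote for the 12 factor genes that passed the edgeR threshold, ordered by log2 fold change, WT in blue and R442Q in red; points are embryos and bars are group means. Eif3c and Eif3e show R442Q embryos wholly below WT embryos, and Eif4g2 and Eif2ak4 wholly above.

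Of the 12, the 6 genes Eif3c, Eif3e, Eif4g2, Eif2ak4, Eif4a1 and Eif5a2, passed in all 11 fits that left out 1 zygote, and the other 6 in 1 to 3 of them. The count was 6 or 7 without WT replicate 1, 2 or 4 or R442Q replicate 1, 2, 5 or 6. In those fits 1125 to 1457 of all genes passed, against 1643 in the main fit. In the fit that joined zygotes with late 2-cell embryos 3 passed, Eif3c, Eif4g2 and Eif5a2, and 270 of 16199 genes did. Stage markers also moved with the groups: the 6 egg and zygote markers summed to 2550 to 3290 FPKM in WT and 1700 to 2470 FPKM in R442Q zygotes, and the 5 late 2-cell markers to 4.21 to 6.60 FPKM in WT and 14.2 to 70 FPKM in R442Q zygotes. Their part in these differences was not tested.

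In late 2-cell embryos 5 of the 59 factor genes tested passed, all of them lower in R442Q embryos. That is 8.47%, against a background of 4.18% of 13883 genes, 2.95% lower and 1.22% higher. The 59 did not lean that way as a group: 35 of them had positive differences, and their median log2 difference was 0.28, against 0.07 over all genes. Eif4b, which stimulates eIF4A (chromosome 15, 102073773 to 102097173), stood at 135.4, 180.5, 81.3 and 111.7 CPM in WT and at 13.5, 46.6, 41.2, 41.2 and 32.1 CPM in R442Q embryos. Its log2 difference was -1.79 ± 0.37 (edgeR adjusted p 0.0169). Eif4g1, the main eIF4G scaffold gene (chromosome 16, 20668313 to 20692884), stood at 222.6, 280.8, 147.5 and 190.2 CPM in WT and at 34.3, 90.1, 80.6, 17.4 and 55.5 CPM in R442Q embryos, a difference of -1.85 ± 0.41 (edgeR adjusted p 0.0240). For both genes every R442Q embryo was below every WT embryo.

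Eif2b5, the catalytic subunit gene of eIF2B (chromosome 16, 20498817 to 20509323), stood at 71.3, 67.5, 78.3 and 49.7 CPM in WT and at 15.0, 28.3, 20.1, 13.1 and 21.5 CPM in R442Q late 2-cell embryos. The log2 difference was -1.67 ± 0.34 (edgeR adjusted p 0.0165). Eef2 (chromosome 10, 81176631 to 81182498) stood at 154.5, 245.2, 89.1 and 129.1 CPM in WT and at 62.5, 39.0, 32.3, 29.8 and 59.0 CPM in R442Q embryos, a difference of -1.68 ± 0.38 (edgeR adjusted p 0.0247). Eif3a, the largest eIF3 subunit gene (chromosome 19, 60761117 to 60790658), stood at 149.0, 293.7, 165.3 and 205.5 CPM in WT and at 64.7, 68.1, 95.3, 41.4 and 88.7 CPM in R442Q embryos. Its difference was -1.43 ± 0.33 (edgeR adjusted p 0.0266). None of these groups overlapped either. Over the 59 genes, groups did not overlap for 8 that were lower and 4 that were higher in R442Q embryos, against a background of 8.77% and 3.67%.

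**Figure D3:**
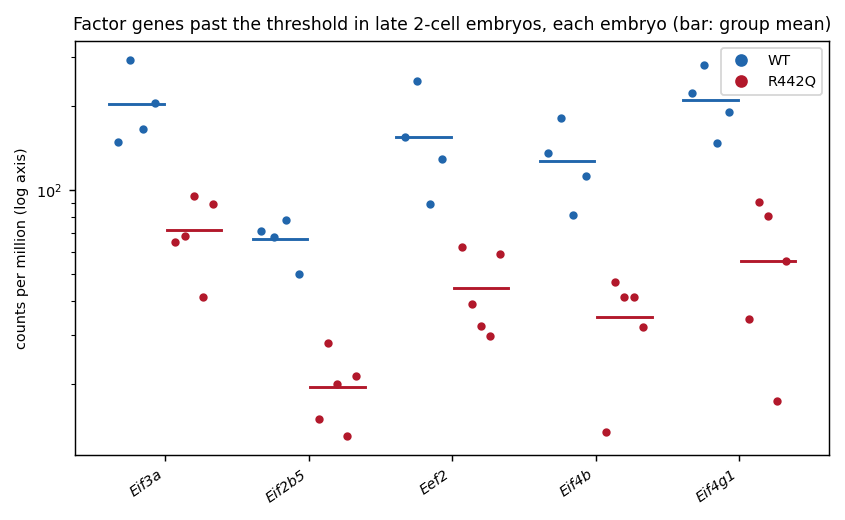
CPM (log axis) in every late 2-cell embryo for the 5 factor genes that passed the edgeR threshold, WT in blue and R442Q in red; points are embryos and bars are group means. All 5 R442Q embryos lie below all 4 WT embryos for each of the 5 genes.

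Genes that did not pass pointed both ways at this stage. Eef2k stood at 28.3, 24.8, 27.3 and 30.5 CPM in WT and at 17.1, 4.71, 15.0, 5.19 and 12.3 CPM in R442Q late 2-cell embryos, without overlap (log2 -1.25 ± 0.49, edgeR adjusted p 0.156). Eif4enif1 and Eif4g2 had lower R442Q values without overlap as well, with log2 differences of -0.80 ± 0.29 and -0.72 ± 0.28 (edgeR adjusted p 0.127 and 0.149). Eef1a1 stood at 766, 779.3, 730.5 and 570.8 CPM in WT and at 1320, 886, 943, 1531 and 1006 CPM in R442Q embryos, also apart (log2 0.78 ± 0.29, edgeR adjusted p 0.132). Eif3e stood at 67.6, 90.2, 64.8 and 96.4 CPM in WT and at 216.4, 119.8, 127.8, 149.0 and 144.3 CPM in R442Q embryos (log2 1.03 ± 0.32, edgeR adjusted p 0.0800). Its groups too were apart. Of Eef1a1, 39.4% of the 50-base stretches occur in other genes.

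The late 2-cell differences were correlated with transcript length and GC content, and the calls depended on single embryos. Across the 59 genes the log2 difference had a Pearson r of -0.449 with the log2 length of the longest annotated transcript, against -0.305 across all genes tested. With GC content r was -0.295 across the 59 and -0.269 across all genes; these are correlations across genes, which are not replicates. Of the 20 shortest factor genes (744 to 2323 nucleotides) 18 had positive differences, and of the 20 longest (3712 to 8134 nucleotides) 13 had negative ones. With each library's trend on GC content and length removed, none of the 5 passed, at log2 differences of -1.22 (Eif2b5), -1.31 (Eif4b), -0.98 (Eif4g1), -0.68 (Eef2) and -1.29 (Eif3a) and edgeR adjusted p-values of 0.106, 0.117, 0.246, 0.483 and 0.0878. Both trends were removed in 1 step, so the parts of length and of GC content were not tested apart. Of the 5, Eef2 (3089 nucleotides, 57% GC) moved most and Eif3a (5125 nucleotides, 44.5% GC) least. Without WT replicate 2 none of the 5 passed, with edgeR adjusted p-values of 0.0643 (Eif2b5) to 0.106 (Eef2), and 142 of 14690 genes did. There were 2 without WT replicate 4 and 3 without R442Q replicate 2 or 4. With the summed log2 CPM of the Y-linked genes Ddx3y, Kdm5d and Uty as a covariate 2 passed, Eif4b and Eif4g1. That sum is no clean measure of sex, since Kdm5d stood at 20.91 to 59.82 FPKM in the 3 late 2-cell embryos with Eif2s3y, at 19.76 to 37.79 FPKM in the others and at 40.81 to 76.3 FPKM in zygotes. In limma on log2(FPKM + 1) 4 passed, Eif2b5 missing at an adjusted p of 0.0590. DESeq2 called 12 factor genes, 4 higher and 8 lower, among them all 5, and 1683 of all 13883 genes. The fit joined with zygotes called 14, 5 higher and 9 lower, among them all 5, and 2507 of all 16199 genes. Trophectoderm markers summed to 41.3 to 133 FPKM in WT and 101 to 379 FPKM in R442Q late 2-cell embryos, and late 2-cell markers to 46.4 to 495 and 278 to 799 FPKM; their part in these differences was not tested.

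**Figure D4:**
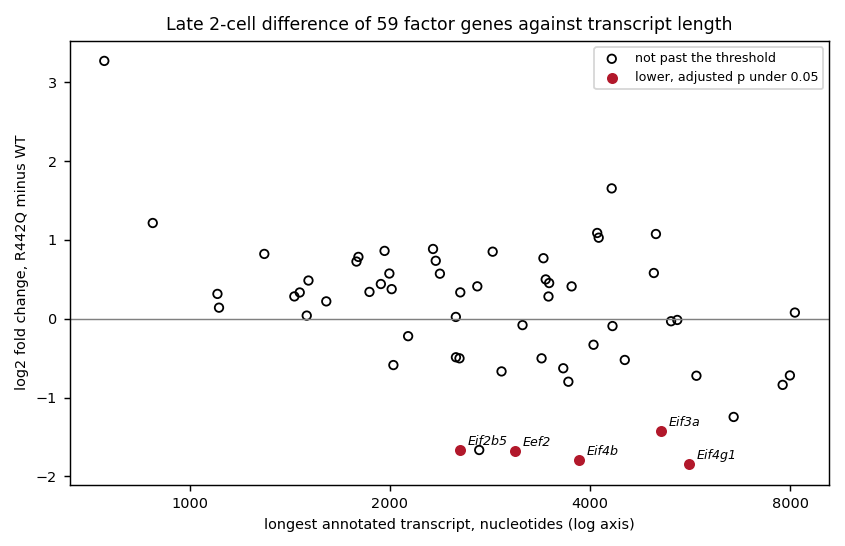
Log2 fold change of R442Q against WT in late 2-cell embryos (vertical axis) for the 59 tested factor genes against the length of the longest annotated transcript in nucleotides (horizontal, log axis); each point is a gene, and filled red points passed the edgeR threshold. Short transcripts lie mostly above 0 and long ones mostly below, with the 5 lower genes between 2554 and 5638 nucleotides.

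In blastocysts grown with inhibitor, none of the 55 factor genes tested passed in limma on log2(FPKM + 1). The background was 0.00885%, 1 of 11297 genes. At an unadjusted p under 0.05 there was 1 factor gene, against 7.40% of all genes. It was Eif3l, at 197 to 497 FPKM, median 222, in WT and 122 to 214 FPKM, median 185.5, in R442Q blastocysts (log2 -0.46 ± 0.21, limma adjusted p 0.648). Groups overlapped for all 55 genes, against a background of 0.416% without overlap. The 5 genes lower in late 2-cell R442Q embryos had overlapping blastocyst levels: Eef2, for example, had 123.7 to 209.1 FPKM, median 181.8, in WT and 46.6 to 214.9 FPKM, median 151.7, in R442Q. The limma log2 differences of Eif4b, Eef2, Eif3a, Eif4g1 and Eif2b5 were -0.55, -0.30, -0.25, -0.15 and -0.03. The lowest R442Q value of Eef2, Eif4b and Eif4g1 was that of R442Q replicate 7, and the count was also 0 without it.

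Whether the difference between R442Q and WT changed from zygote to late 2-cell was tested directly, as the interaction in the joint edgeR fit. It passed for 11 of the 60 factor genes, 4 with a more positive and 7 with a more negative difference in late 2-cell embryos. That is 18.3%, against a background of 10.1% of 16199 genes (3.07% and 7.05%). Eif3e had lower R442Q values in zygotes and higher ones in late 2-cell embryos, an interaction of 1.70 ± 0.31 on the log2 scale (edgeR adjusted p 0.00144). Eif3l, Eif3m and Eif2s2 also had positive interactions, of 1.21, 1.29 and 1.16. Eif4g2 was the reverse, with higher R442Q values in zygotes and lower ones in late 2-cell embryos, at -1.49 ± 0.25 (edgeR adjusted p 6.62e-04). The others with negative interactions were Eif4g1 (-2.22), Eef2 (-2.05), Eif4b (-1.93), Eef2k (-1.78), Eif2b5 (-1.65) and Eif4enif1 (-1.01).
For the 14 eIF3 genes 3 interactions passed, all positive (21.4%, background 3.07%), and the median was 0.51 against -0.16 over all genes.
Of the 11, Eif4g2, Eif3e, Eif4g1, Eef2, Eif4b and Eef2k passed in all 20 fits that left out 1 embryo, Eif3l in 19, Eif2s2 in 16, Eif4enif1 in 11, Eif2b5 in 9 and Eif3m in 8. With GC and length trends removed, the late 2-cell differences of Eif4g1, Eef2, Eif4b and Eif2b5 did not pass. Neither that removal nor limma on log2(FPKM + 1) was run for the interaction. Without the filter on low counts 7 passed, Eif2b5, Eif4enif1, Eif3m and Eif3l being lost, and 1437 of 31286 genes did. Without R442Q late 2-cell replicate 3, 17 factor genes passed, 10 of them positive, and all 11 were among them. In that fit 2311 of 15809 genes passed, against 1639 of 16199 in the main fit. In a smaller fit of the 2 embryos per group whose numbers in the sample descriptions occur in all 4 groups, with no replicate term, none passed, and 3 of 15697 genes did.

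**Figure D5:**
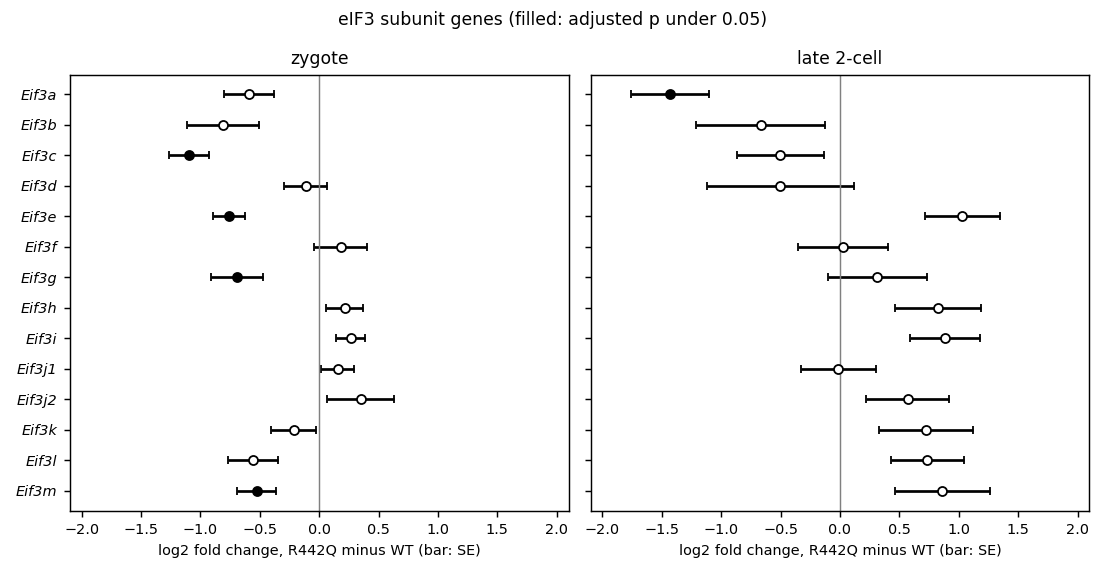
Log2 fold change of R442Q against WT (horizontal axis, with its standard error) for the 14 eIF3 subunit genes in zygotes (left) and late 2-cell embryos (right); filled points passed the edgeR threshold. In zygotes Eif3c, Eif3e, Eif3g and Eif3m were lower, and in late 2-cell embryos Eif3a was lower while Eif3e had a positive difference that did not pass.

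Other genes of translation, 42 listed by arm of the pathway, were read from the same fits. In zygotes 7 of the 39 tested passed (17.9%, background 13.2%), 2 higher and 5 lower in R442Q embryos (background 6.30% and 6.92%). Higher were Tsc2, a brake on mTOR (log2 0.72 ± 0.14, edgeR adjusted p 0.00290), and Ppp1r15a, which brings the phosphatase to eIF2 alpha (0.46 ± 0.14, edgeR adjusted p 0.0451). Lower were the release factor genes Gspt1 and Gspt2 (-0.75 and -0.81), the poly(A)-binding gene Pabpc1l (-0.80), the eIF4E kinase gene Mknk1 (-0.70) and Atf4, whose translation eIF2 alpha phosphorylation favours (-0.42). In late 2-cell embryos 1 of 41 passed (2.44%, background 4.18%), Ppp1r15a, lower in R442Q embryos by 1.93 ± 0.32 on the log2 scale (edgeR adjusted p 0.00959), and in blastocysts none of 39, with 3 at an unadjusted p under 0.05 in limma (background 7.40%). Alternative fits are not given for these 42 genes. Over all genes the late 2-cell calls fell from 580 to 125 with GC and length trends removed and to 142 without WT replicate 2. From zygote to late 2-cell 33 of the 41 passed in WT embryos (80.5%, background 61.2%), 21 higher and 12 lower; there the egg poly(A)-binding gene Pabpc1l fell by 6.31 and its general counterpart Pabpc1 rose by 5.77 on the log2 scale.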

How the data were processed

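RNA was sequenced from 34 single embryos, and groups and replicate numbers come from the titles. The authors deposited RSEM estimated counts per gene symbol (zygote, late 2-cell) and FPKM (all 3 stages); RSEM and mm10 are named in the submitters' processing notes, and versions, aligner, annotation and use of strand are not given in the sources used here. Estimated counts were rounded to whole numbers and tested with edgeR 4.0.16 in R 4.3.3: filterByExpr with its minimum count of 10, TMM scaling, quasi-likelihood test, each stage alone for R442Q against WT and a model of 4 groups for stage changes and the interaction. For blastocysts log2(FPKM + 1) was fitted in limma 3.58.1 (trend option), a scale that understates changes of low genes, for genes of at least 1 FPKM in at least 7 embryos. All tests were fitted on whole tables and adjusted by Benjamini-Hochberg over all genes tested, threshold 0.05. The members, role groups and other lists were chosen with earlier results of these data known. Values per embryo, or ranges over embryos, were given for 17 genes set by role and the members with the smallest p in each comparison. They were also given for those with the largest stage changes and those with the highest and lowest blastocyst to late 2-cell ratios. Other members are named within their role group, and Eif4e2, Eif3f, Eif3l and Eif5 were added after their values were seen. Positions, lengths and shared 50-base stretches come from GENCODE M21 (GRCm38), start windows from RefSeq (GRCm38.p6), and strand was not used in tests. Alternatives were DESeq2 1.42.0, other scalings and filters, limma on FPKM, a joint fit, removal of GC and length trends, a Y-linked covariate, replicate blocks and leaving out each embryo. Floors of 3 counts cover counting error only, since the libraries carried no stated molecular identifiers.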

Additional observations from a re-analysis of the deposited data

Results flagged for a closer look

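In 156 groups of 4 to 7 embryos, 10 values of named genes stood apart from the rest of their group by Dixon's criterion, where chance gives about 1 in 20 groups. In zygotes these were Eif4e1b in WT replicate 1, at 405 CPM against 320.2 to 338.9 in the others, and Eif4enif1 in R442Q replicate 2, at 609.7 CPM against 819.1 to 935.8. In late 2-cell embryos they were Eif4e1b in WT replicate 3 (81.34 CPM against 24.97 to 31.86), Eif2s3y in R442Q replicate 4 (17.75 CPM against 0) and Eef2kmt in R442Q replicate 2 (9.047 CPM against 0 to 2.442). In blastocysts they were Eif2s2 in WT replicate 4 (1951 FPKM against 892.2 to 1226), Eif3e in WT replicate 2 (415.2 FPKM against 133.2 to 230.8), Eef1g in R442Q replicate 7 (397.6 FPKM against 630.1 to 729) and, in R442Q replicate 3, Eif4e1b (1.98 FPKM against 0 to 0.33) and Eef2k (6.35 FPKM against 0 to 1.91).

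The difference between R442Q and WT itself differed between zygotes and late 2-cell embryos for 11 factor genes, by the edgeR interaction term. On the log2 scale it was -1.49 for Eif4g2, 1.70 for Eif3e, -1.93 for Eif4b, -2.22 for Eif4g1, -2.05 for Eef2 and -1.78 for Eef2k. It was -1.01 for Eif4enif1, -1.65 for Eif2b5, 1.21 for Eif3l, 1.16 for Eif2s2 and 1.29 for Eif3m, with edgeR adjusted p-values of 6.62e-04 (Eif4g2) to 0.0499 (Eif3m).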

How the results depend on the processing

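Over 152 results of named genes and 3721 values under alternatives, 3502 kept their direction and side of the threshold, 192 lost and 27 gained a call, and 0 calls changed sign. The 3502 include results that were not called and stayed so, as in all blastocyst comparisons. Called differences varied: in zygotes the call of Eif3c was kept in 22 of 22 alternatives, that of Eif4e in 5 and that of Eif5a in 4. Counts of factor genes moved more, and the cause was not tested. In zygotes (12) the joint fit called 3, and 270 of 16199 genes. In late 2-cell embryos (5) DESeq2 called 12, the joint fit 14, the fit with a Y-linked covariate 2 and the fit without GC and length trends 0. The interaction (11) gave 7 without a filter on low counts. Leaving out 1 embryo gave 6 to 12 in zygotes, 0 to 7 in late 2-cell embryos, 0 in blastocysts, 41 to 45 and 40 to 43 for the stage changes of WT and R442Q embryos, and 8 to 17 for the interaction. Deviations of same-numbered embryos had correlations of -0.168 to 0.223, and some but not all WT embryos correlated best with their own number. Such correlations cannot decide whether same-numbered embryos shared a mother or an injection session, which the labels do not give. With the replicate block by title number the counts were 7 in zygotes, 0 in late 2-cell embryos and 6 for the interaction, and by description number 5, 0 and 0. Without the block, in the embryos of the shared title numbers, they were 7, 5 and 6, and in those of the shared description numbers 6, 0 and 0, fits added after seeing the data. The block kept the blastocyst count at 0 and the stage counts at 33 to 40. Depth in counts is unknown for blastocysts; from the spacing of low FPKM values their relative depth was 0.876 to 1.16 of the mean, an estimate that missed known late 2-cell totals by up to 18.0%.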
